A study of Mus musculus with 18 samples.

Results

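Sp4 and 7 genes chosen for their place on the genome or their kinship to it were followed in newborn Ts1Cje mice, in the external granule cell layer of their cerebella. The members were taken by symbol: Sp4, Sp8, Itgb8 and Abcb5 lie in a segment near the end of mouse chromosome 12 (Mmu12) that the study, by genomic hybridization, found in 1 copy in Ts1Cje, Rapgef5 lies near that segment, and Sp1, Sp2 and Sp3 are relatives of Sp4 on other chromosomes. Every probe annotated to these symbols was used, which gave 16 of the 46632 probes of the array and 7 of the 8 genes: 2 probes for Sp4, 1 for Sp8, 3 for Itgb8, 1 for Abcb5, 4 for Rapgef5, 2 for Sp1 and 3 for Sp3. Sp2 had 0 annotated probes and was not analysed here.

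Expression was measured on 18 Illumina Mouse-6 arrays, with the layer of 1 pup on each. The 9 Ts1Cje pups carry 3 copies of the Mmu16 genes between Sod1 and Znf295, of which 1 is joined to the end of Mmu12 and still holds the neomycin cassette of the disrupted Sod1 allele. They were compared with 9 euploid littermates. All were of the mixed B6EiC3SnF1/J A/a background given in the labels and were taken on the day of birth (P0). Each of 3 litters gave 3 Ts1Cje and 3 euploid pups, and 1 slide held the arrays of 1 litter, which makes slide and litter inseparable. Since the tissue is a dissected bulk layer, fewer cells of a type and less RNA per cell cannot be told apart.

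Sp4, Sp8, Sp1, Sp2 and Sp3 encode zinc finger transcription factors. Sp4, Sp8, Sp1 and Sp3 bind GC-rich DNA, above all the GC box. Sp1 and Sp3 are made in most cells, Sp4 is enriched in neurons, where it shapes dendrites of cerebellar granule cells, and Sp8 patterns the forebrain and the limb bud. The external granule cell layer is the germinal zone in which granule cell precursors divide before they migrate inwards. Of the other members, Itgb8 encodes the integrin chain that pairs with the alpha V chain to activate latent TGF-beta, Abcb5 encodes a membrane transporter, and Rapgef5 encodes an exchange factor that loads the small GTPase Rap with GTP.

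The labels and the tissue were checked first. The mean log2 signal of 27 genes of the three-copy Mmu16 segment lay between 9.69 and 9.97 in Ts1Cje pups, against 9.19 to 9.56 in euploid pups, and was above every euploid pup in 9 of 9 Ts1Cje pups. Of 13 markers of granule cell precursors 11 had a probe, and 8 of these, such as Zic1, Pax6 and Neurod1, were brighter than a dim reference. That reference is the 95th percentile, 6.14 on the log2 scale, of the mean signals of 1310 probes for odorant and pheromone receptors, which 43.4% of all probes exceeded. Atoh1, the defining transcription factor of these precursors, lay under it with its single probe (5.68 in Ts1Cje and 5.69 in euploid pups), as did Gli1 and Mycn. The source label of 2 euploid arrays of litter 2 names cerebellum while their tissue field names the layer, and both arrays were kept.

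Promoter windows are shown first because Sp factors such as Sp4 bind the GC box and some of the windows, that of Sp4 included, hold it. Each window runs from 250 bases before to 50 after a start site, from RefSeq on build GRCm38.p6, 5′ to 3′ on the strand of the gene, and capitals mark the GC box, GGGCGG, or its reverse complement, CCGCCC. The windows are those of Sp4 (chr12:118301391-118301690, minus strand), which fell, and of genes at 2 copies. These are Rapgef5 at the second of its listed start sites (chr12:117533678-117533977, plus strand), a nearby gene, and Sp1 (chr15:102406066-102406365, plus strand), a relative of Sp4.
Sp4: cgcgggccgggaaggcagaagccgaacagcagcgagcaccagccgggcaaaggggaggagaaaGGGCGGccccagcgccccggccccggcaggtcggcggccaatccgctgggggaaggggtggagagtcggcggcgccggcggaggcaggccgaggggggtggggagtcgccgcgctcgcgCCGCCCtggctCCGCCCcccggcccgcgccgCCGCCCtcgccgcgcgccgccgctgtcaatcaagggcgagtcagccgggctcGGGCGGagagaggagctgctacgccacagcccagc
Rapgef5: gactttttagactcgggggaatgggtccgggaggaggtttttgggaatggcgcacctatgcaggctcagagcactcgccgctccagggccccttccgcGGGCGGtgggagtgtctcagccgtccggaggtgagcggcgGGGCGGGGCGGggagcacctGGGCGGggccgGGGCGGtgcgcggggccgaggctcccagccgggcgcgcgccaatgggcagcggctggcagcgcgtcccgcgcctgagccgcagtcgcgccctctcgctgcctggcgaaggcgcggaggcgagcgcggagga
Sp1: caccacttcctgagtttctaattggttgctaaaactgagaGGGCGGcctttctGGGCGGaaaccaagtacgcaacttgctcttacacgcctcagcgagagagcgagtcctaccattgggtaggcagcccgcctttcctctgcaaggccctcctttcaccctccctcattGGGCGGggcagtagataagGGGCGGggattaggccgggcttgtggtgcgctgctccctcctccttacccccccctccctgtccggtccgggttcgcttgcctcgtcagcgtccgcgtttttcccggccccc

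The Sp4 window held 5 GC boxes, 2 on the strand of the gene and 3 on the other. The Rapgef5 window also held 5, all on its own strand, and the Sp1 window held 4. At least 1 GC box was present in 35.7% of the 32851 windows of the table and at least 5 in 2.71%. All 8 members had a window, 14 windows in all, of which 7 held a GC box. Those of Itgb8 and Abcb5 held 0, as did the first window of Rapgef5. These are matches of letters only, and the genes that share them differed in what the arrays showed, as follows.

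Sp4 was the only member that passed the test, and it was lower in Ts1Cje. The study had already listed Sp4 as lower from these same arrays, and that made it look for the deletion. The call here thus repeats a known result of the same data and is not independent evidence for the segment. With its brighter probe (ILMN_1259753) the log2 signal of Sp4 in Ts1Cje pups had a lowest value of 7.05, a median of 7.12 and a highest of 7.47, against 7.57, 7.86 and 8.20 in euploid pups. The brightest Ts1Cje pup thus lay under the dimmest euploid pup, and the groups did not overlap. The mean was 7.20 ± 0.15 in Ts1Cje and 7.90 ± 0.21 in euploid pups (SD, n = 9 each). The difference, Ts1Cje minus euploid, was -0.70 on the log2 scale (standard error 0.081, 95% interval -0.87 to -0.53), which is a ratio of 0.617 (0.549 to 0.694) or a signal 38.3% lower. Limma gave an adjusted p of 3.3e-04 over all probes, and the exact two-sided permutation test over all 48620 splits of the pups into 9 and 9 gave the smallest p it allows, 4.1e-05.

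**Figure D1:**
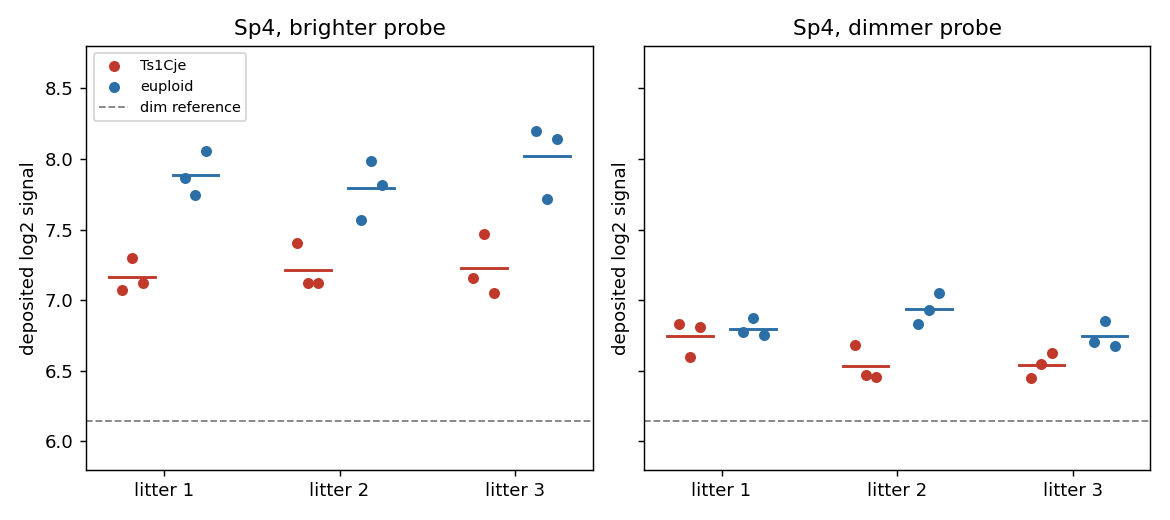
Deposited log2 signal (vertical axis) of Sp4 in each pup by litter, for the brighter probe (left) and the dimmer probe (right), with Ts1Cje in red, euploid in blue, the mean of each group as a bar and the dim reference (6.14) dashed. With the brighter probe every Ts1Cje pup lies under every euploid pup, and with the dimmer probe the groups overlap in litter 1.

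Of the 16 member probes 1 was called lower and 0 higher at an adjusted p under 0.05, against a background of 0.0129% of all probes called lower and 0.0922% called in either direction (43 probes). At an unadjusted p under 0.05 there were 4 member probes, all lower in Ts1Cje, against 5.01% of all probes in either direction and 2.87% lower. They were both Sp4 probes, 1 Itgb8 probe and 1 Sp3 probe. Groups did not overlap for 1 member probe, as for 0.00858% of all probes that were lower in Ts1Cje and 0.0472% in either direction. The median difference over the member probes was -0.015, against -0.010 over all probes.

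The difference of Sp4 was present in each litter. It was -0.72 in litter 1, -0.58 in litter 2 and -0.79 in litter 3 on the log2 scale, which are ratios of 0.605, 0.671 and 0.579. In none of the 3 litters did the groups overlap, although 3 pups against 3 cannot go under a p of 0.10 in an exact test. The Ts1Cje means by litter were 7.16, 7.22 and 7.23, and the euploid means 7.89, 7.79 and 8.02. The genotype difference was not shown to differ between litters (limma F test of genotype by litter, adjusted p = 0.960).

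The second Sp4 probe (ILMN_1253376) gave a smaller difference. Its log2 signal in Ts1Cje pups had a lowest value of 6.45, a median of 6.60 and a highest of 6.83, against 6.67, 6.83 and 7.05 in euploid pups, and 6 of 9 Ts1Cje pups lay under all euploid pups. The difference was -0.22 (standard error 0.060), a ratio of 0.858 (95% interval 0.787 to 0.937), and it did not pass the adjusted test (limma, unadjusted p = 0.0016, adjusted p = 0.534), while the exact permutation test of this single value gave p = 0.0035. In the litters the differences were -0.055, -0.40 and -0.20, so that the groups overlapped in litter 1 and were apart in litters 2 and 3. The test of genotype by litter had an unadjusted p of 0.0348 and an adjusted p of 0.712 (limma F test). The genotype differences of the 2 probes, brighter minus dimmer, differed by -0.48 on the log2 scale (exact permutation test of the gap between the probes in each pup, p = 0.00086), with the gap in 8 of 9 Ts1Cje pups under that of all euploid pups. Within genotypes the probes did not rise and fall together over the 18 pups (Pearson r = -0.33, Spearman rho = -0.32, genotype means removed). Which transcripts the probes read was not given in the sources used here. With the mean of both probes as the signal of Sp4 the difference was -0.46, a ratio of 0.728 (limma, adjusted p = 2.3e-05 among genes).

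If signal followed copy number, 1 copy against 2 would give a ratio of 0.5. The brighter Sp4 probe stood above that ratio with its whole 95% interval of 0.549 to 0.694. The receptor probes of the dim reference had a median of 5.65 in the deposited log2 values, and a signal added to every probe draws ratios towards 1. After the percentile 5 of each array was subtracted as background, the ratio of the brighter Sp4 probe was 0.532 (95% interval 0.446 to 0.634) and its interval included 0.5. The dimmer Sp4 probe stood above 0.5 with its interval of 0.787 to 0.937 in the deposited values. After background subtraction its difference was -0.37 (standard error 0.11), which still stood well above a ratio of 0.5. The genotype difference of the brighter probe kept its call with background subtraction (-0.91, adjusted p = 0.0067). It also passed with 12 other alternative settings, between -0.76 and -0.65 on the log2 scale, but not without litter 1, where it was -0.68 with an adjusted p of 0.0670 over 12 pups.

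The other members of the segment showed no difference that passed the test. Sp8 had a log2 signal between 6.01 and 6.22 (median 6.15) in Ts1Cje pups and between 6.08 and 6.22 (median 6.15) in euploid pups. Its mean of 6.13 in Ts1Cje and 6.15 in euploid pups sits at the dim reference, and the difference was -0.011 (standard error 0.034), a ratio of 0.992 with a 95% interval of 0.944 to 1.04 (limma, adjusted p = 0.984). Abcb5, with 1 probe under the reference, had a median of 5.91 in Ts1Cje and 5.90 in euploid pups and a difference of -0.021 (standard error 0.033, ratio 0.985, 95% interval 0.940 to 1.03, limma adjusted p = 0.971). A signal at the level of receptor probes gives no measure of what these genes lose or keep, so that their intervals bound the change of the signal and not of the transcript.

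Itgb8 was read by 3 probes that all lay under the dim reference. Probe 1 had a lowest value of 5.56, a median of 5.81 and a highest of 6.05 in Ts1Cje pups, against 5.67, 6.04 and 6.34 in euploid pups, and 3 of 9 Ts1Cje pups lay under all euploid pups. Its difference of -0.19 (standard error 0.091, ratio 0.876, 95% interval 0.768 to 0.999) had an unadjusted p of 0.0478, an adjusted p of 0.965 with limma and an exact permutation p of 0.068. These tests hold no litter term. With litter as a block the standard error was 0.061, the unadjusted p 0.0056 and the adjusted p 0.441 (limma). The differences in the litters were -0.30, -0.17 and -0.10, with no overlap in litter 1 only. Probes 2 and 3 gave -0.0054 (standard error 0.042) and -0.092 (standard error 0.053), with adjusted p of 0.994 and 0.965. With litter as a block their unadjusted p were 0.903 and 0.072 (limma). Within genotypes probe 1 followed neither of them closely (r = -0.055 with probe 2 and 0.27 with probe 3 over 18 pups).

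**Figure D2:**
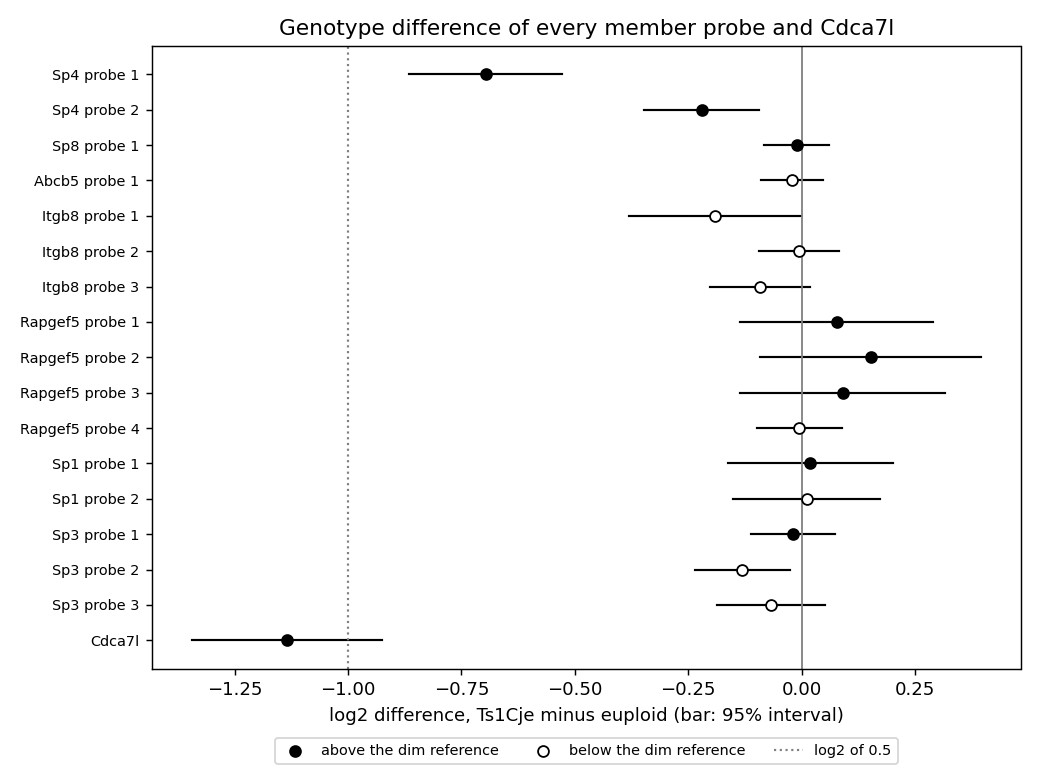
Log2 difference, Ts1Cje minus euploid (horizontal axis), of each of the 16 member probes and of Cdca7l, with its 95% interval from limma, filled points for probes above the dim reference and open points for those under it. The brighter Sp4 probe at -0.70 and Cdca7l at -1.13 lie apart from 0, and the intervals of the others span 0 except those of Sp4 probe 2, Itgb8 probe 1 and Sp3 probe 2.

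Rapgef5, at 2 copies and near the segment with Cdca7l between them, lay well above the dim reference with 3 of its 4 probes. It showed no difference that passed the test. Its brightest probe had a lowest value of 8.47, a median of 9.03 and a highest of 9.22 in Ts1Cje pups, against 8.51, 8.94 and 9.26 in euploid pups, so that the groups overlapped. The difference was 0.077 (standard error 0.10), a ratio of 1.05 with a 95% interval of 0.911 to 1.22 (limma, adjusted p = 0.966). Probes 2 and 3 gave 0.15 and 0.091, ratios of 1.11 (0.939 to 1.32) and 1.06 (0.910 to 1.25), with adjusted p of 0.965 for both. These 3 probes rose and fell together within genotypes (r of 0.91, 0.90 and 0.85 over the 18 pups, which share array and litter), unlike the Sp4 pair. Probe 4 lay under the reference, at 5.63 in Ts1Cje and 5.64 in euploid pups, and followed none of them (r between -0.037 and 0.19).

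**Figure D3:**
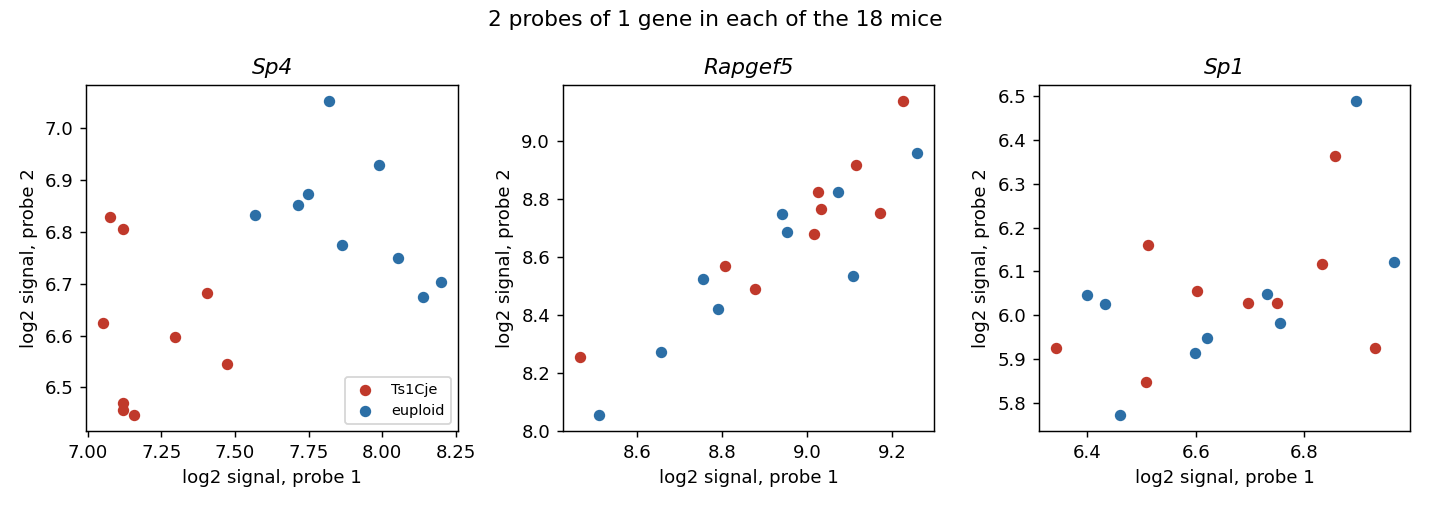
Log2 signal of probe 1 (horizontal axes) against probe 2 (vertical axes) of Sp4, Rapgef5 and Sp1, 1 point per pup, Ts1Cje in red and euploid in blue. The Rapgef5 probes follow 1 line in both genotypes, whereas the Sp4 probes separate the genotypes along the horizontal axis without following each other within a genotype.

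The relatives of Sp4 at 2 copies also did not pass the test. Sp1 had a log2 signal of 6.34 to 6.93 (median 6.70) in Ts1Cje pups and 6.40 to 6.96 (median 6.62) in euploid pups with its brighter probe. The difference was 0.019 (standard error 0.087), a ratio of 1.01 with a 95% interval of 0.894 to 1.15 (limma, adjusted p = 0.989), and its dimmer probe gave 0.011. Sp3 had values of 6.20 to 6.60 (median 6.37) in Ts1Cje pups and 6.37 to 6.47 (median 6.42) in euploid pups with its brightest probe, a difference of -0.019 (standard error 0.044, ratio 0.987, 95% interval 0.925 to 1.05, limma adjusted p = 0.977). Its means were close, 6.40 ± 0.12 in Ts1Cje and 6.42 ± 0.034 in euploid pups (SD, n = 9 each), and 5 Ts1Cje pups lay under and 3 over all euploid pups. Probe 2 of Sp3, under the reference, had a difference of -0.13 (unadjusted p = 0.0165, adjusted p = 0.965 with limma), and probe 3 one of -0.067, with -0.22 in litter 3 and 0.12 in litter 1.

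The genotype difference of Sp4 was set against those of Rapgef5, Sp1 and Sp3, the members at 2 copies whose brightest probe lay above the dim reference. In each pup the log2 signal of that probe was taken from that of the brighter Sp4 probe, and the gap was compared between genotypes. This was done for 7 genes, Cdca7l included, but gaps to Sp8, Abcb5 and Itgb8 are not read because their signals sit at or under the reference. The gap differed between genotypes by -0.77 against Rapgef5 and -0.72 against Sp1, with 8 of 9 Ts1Cje pups under all euploid pups (exact permutation test, p = 8.2e-05 for both), and by -0.68 against Sp3, with 9 of 9 under (p = 4.1e-05, exact). After background subtraction, added after the values were seen, these became -0.998, -0.975 and -0.893. With the dimmer Sp4 probe, also added later, they were -0.30, -0.24 and -0.20 (exact permutation p of 0.012, 0.062 and 0.00074). The size of the contrast thus depended on the Sp4 probe, and the gap to Sp1 did not pass in this test. These permutations took no account of litter, and levels of the brighter Sp1 probe differed between litters. Whether the gap to Sp1 passes with litter held was not tested.

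Levels also differed between litters for 2 member probes, neither of them of Sp4. They passed limma's F test for litter, as did 10.6% of all probes and 22.1% of those above the dim reference. Sp1 had litter means of 6.58, 6.55 and 6.85 in litters 1, 2 and 3 with its brighter probe (adjusted p = 0.0200). In litter 3 it was 6.85 in Ts1Cje and 6.86 in euploid pups, so that both genotypes shared the shift. Itgb8 probe 1 had litter means of 6.05, 5.98 and 5.69 (adjusted p = 0.0081). Sp4 had means of 7.53, 7.50 and 7.62 (adjusted p = 0.715). For genotype by litter, 0 of 16 member probes passed after adjustment and 2 had an unadjusted p under 0.05, against 0.0107% and 6.78% of all probes.

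**Figure D4:**
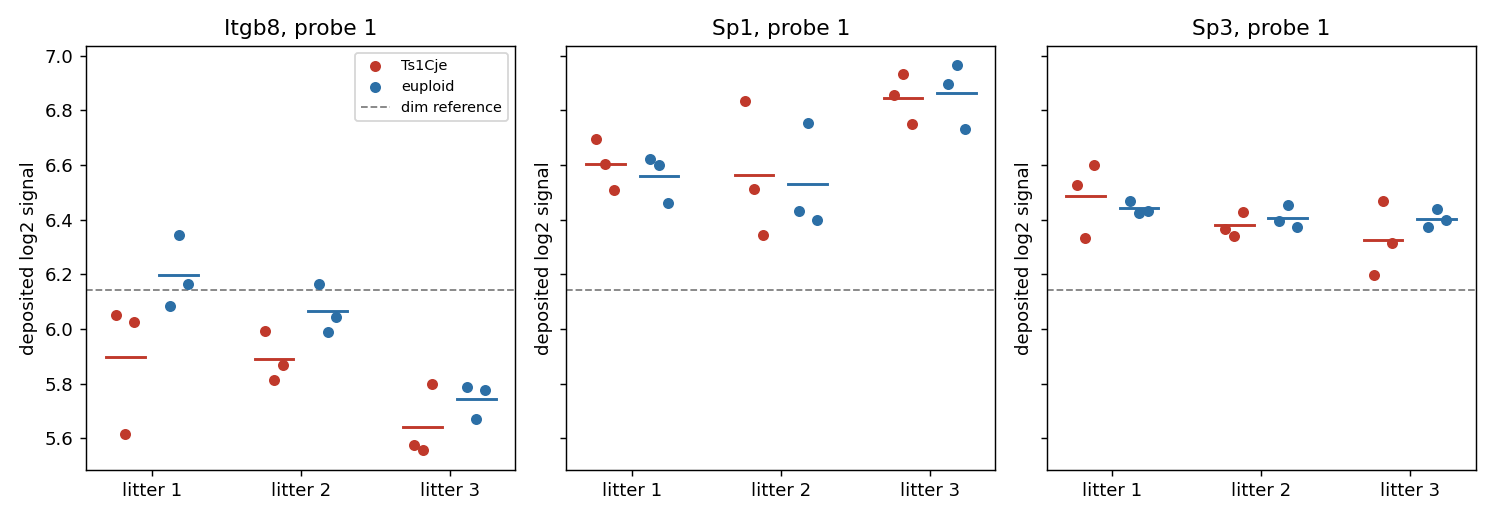
Deposited log2 signal (vertical axis) in each pup by litter for probe 1 of Itgb8, Sp1 and Sp3, with Ts1Cje in red, euploid in blue, group means as bars and the dim reference dashed. Itgb8 is lowest and Sp1 highest in litter 3 in both genotypes, and the Sp3 values spread more among Ts1Cje than among euploid pups.

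Along Mmu12 the genes that passed as lower in Ts1Cje, Cdca7l and Sp4, had between them only Dnah11 among those followed. In order towards the telomere the genes followed were Zfp386, Vipr2, Dync2i1, Esyt2, Ncapg2, Ptprn2, Rapgef5, Cdca7l, Dnah11, Sp4, Sp8, Abcb5, Itgb8, Macc1 and Tmem196. Cdca7l, which encodes a nuclear protein that binds Myc, had a lowest value of 7.90, a median of 8.06 and a highest of 8.26 in Ts1Cje pups, against 8.64, 9.22 and 9.65 in euploid pups. The difference was -1.13 (standard error 0.10), a ratio of 0.455 with a 95% interval of 0.394 to 0.527 (limma, adjusted p = 1.0e-05), and the 9 Ts1Cje pups lay under all euploid pups. In the litters it was -1.17, -0.86 and -1.37. The interval of its ratio included 0.5 in the deposited values. The difference of the brighter Sp4 probe minus that of Cdca7l was 0.44 (standard error 0.13, exact permutation test, p = 0.0045). Signal added to every probe weighs more on the dimmer of 2 probes. After background subtraction Cdca7l had -1.28, a ratio of 0.412. That ratio lay further under 0.5 than the deposited one, and no interval was computed for it. The difference of the brighter Sp4 probe minus that of Cdca7l was then 0.37 (standard error 0.15, exact permutation test, p = 0.028). Cdca7l is not among the genes that the study lists for the segment in 1 copy. The study places it proximal to the translocation breakpoint and concludes that a dosage effect reaches nearby regions, which was not tested here. The study had also listed Cdca7l as lower from these same arrays, so that its call here is not independent. Dnah11, a dynein heavy chain gene between Cdca7l and Sp4, had no annotated probe and was not analysed here.

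**Figure D5:**
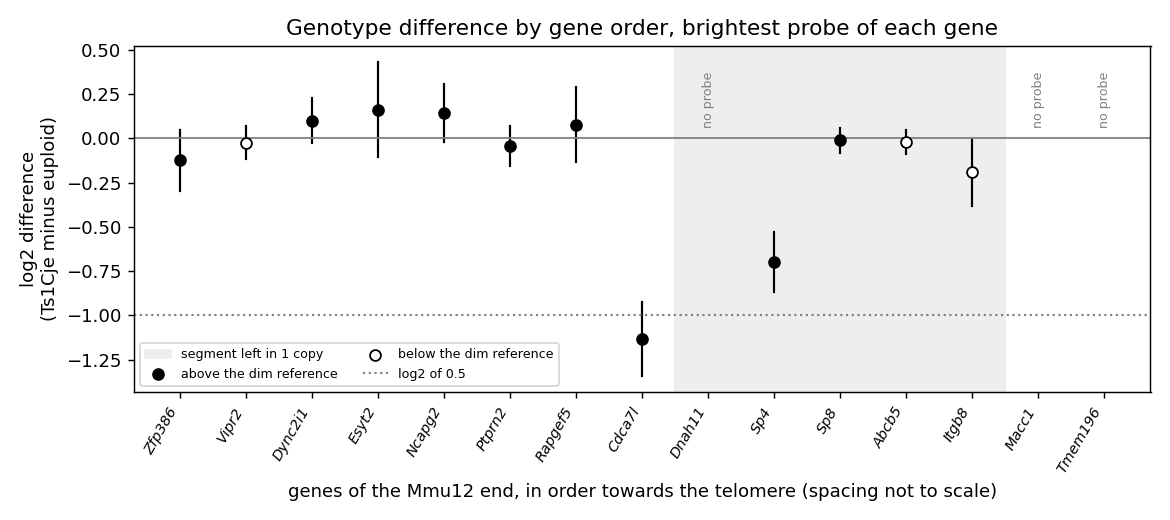
Log2 difference, Ts1Cje minus euploid (vertical axis), with its 95% interval, of the brightest probe of each gene in the order of the genes towards the Mmu12 telomere (horizontal axis, spacing not to scale), with filled points above and open points under the dim reference. Shading, labelled as the segment left in 1 copy, covers Dnah11 to Itgb8, the genes that the study lists for it. Whether Macc1 and Tmem196, nearer the telomere and without a probe, also lie in it was not examined. Cdca7l at -1.13 and Sp4 at -0.70 lie apart from 0, and the interval of Itgb8 ends just under 0.

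Of the 10 other genes of this end of Mmu12, 7 had a probe, and Cdca7l alone passed, against 0.141% of all genes by their brightest probe. The median difference of the 7 was -0.025, against -0.010 over all genes. After Cdca7l the smallest p belonged to Ncapg2, a condensin subunit, and Dync2i1, a dynein intermediate chain, with differences of 0.14 (standard error 0.079) and 0.098 (standard error 0.061), neither past the test.

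Of 21 other genes of the Sp and Klf family, which bind related GC-rich sites, 19 had a probe and 0 passed in either direction (limma, adjusted). With an unadjusted p under 0.05 there was 1, Klf2, which endothelial cells express, against 5.41% of all genes. Its log2 signal was 6.20 to 7.45 (median 6.71) in Ts1Cje and 6.10 to 6.90 (median 6.53) in euploid pups, with a difference of 0.30 (standard error 0.14, unadjusted p = 0.0472, adjusted p = 0.965). Klf13 and Klf17 followed with 0.15 and -0.063. The median difference was -0.010 over the family and over all genes. Of 6 endothelial marker genes 2 had an unadjusted p under 0.05, both higher in Ts1Cje, none passed after adjustment, and the median difference was 0.35. The mean over those markers lay between 8.05 and 8.93 in Ts1Cje pups and between 7.83 and 8.44 in euploid pups, and its part in the Klf2 values was not tested.

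Of 17 genes reported in neurons as regulated by Sp4, subunits of NMDA receptors, the sodium pump and cytochrome c oxidase among them, 13 had a probe, all above the dim reference, and 0 passed (limma), with 0 at an unadjusted p under 0.05. Their differences ran from -0.095 for Cox5b to 0.075 for Cox7b, both subunits of cytochrome c oxidase, with 8 lower, 5 higher and a median of -0.034. Cox5b had values of 13.02 to 13.43 in Ts1Cje and 13.11 to 13.65 in euploid pups. Cox4i1, with the next smallest p, had -0.046 (standard error 0.052). Grin2a and Grin2b, which encode NMDA receptor subunits, gave 0.0035 and 0.055.

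The partners of the other members did not pass either. Of 6 genes linked to integrin beta 8 (the alpha V chain Itgav, the TGF-beta ligands and the proteins that anchor them) 5 had a probe and 0 passed, with a median of 0.087. Nrros, which anchors latent TGF-beta on microglia, had 0.29 (standard error 0.15, unadjusted p = 0.071), with litter values of -0.067, 0.18 and 0.75, Tgfb3 -0.084 and Tgfb2 0.094. Of 10 Rap proteins and their exchange factors 8 had a probe and 0 passed, with a median of 0.078, led by Rapgef6 (0.13), Rapgef2 (0.11) and Rapgef1 (0.092). Of 9 Abcb transporters 8 had a probe and 0 passed, with a median of -0.036, led by Abcb9 (-0.10), Abcb4 (-0.052) and Abcb8 (0.077). At an unadjusted p under 0.05 these lists together held 0 genes.

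The genes most like Sp4 were sought among 9322 named probes of the brighter part of the array by Pearson r with the brighter Sp4 probe over the 18 pups. With genotype means kept they were Cdca7l (r = 0.87), Gng4, a G protein gamma subunit (0.80), Ergic1, a protein of the early secretory pathway (0.77), AI593442 (0.77) and Cd276, a cell surface protein of the B7 family (0.76), and the lowest r belonged to Dscam, a cell adhesion gene of the three-copy segment (-0.84). Such an r holds the genotype difference itself, and Cdca7l, Gng4 and Dscam were each called between genotypes. With genotype means removed, Sp4 and Cdca7l had an r of 0.19. The genes most like Sp4 were then Wbp11 (0.89), Insig2 (0.89), Trub2 (0.88), Atp5c1 (0.87) and Gabarap (0.87), none of which differed between genotypes past the test (limma, adjusted p between 0.965 and 0.998). Over all probes compared, the median r was 0.37 with genotype means removed and 0.13 with them kept. The pups share arrays, and Sp4 within genotypes went with the spread of log2 values of its array (r = 0.71), as did these 5 genes (r between 0.69 and 0.87). The dimmer Sp4 probe (r = -0.21) and Cdca7l (0.16) did so less. Without the 2 euploid arrays of smallest spread, both of litter 2 and left out after the values were seen, the Sp4 difference was -0.76 (limma, adjusted p = 3.5e-04).

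Markers of other cells were read beside these results. Of 6 markers of the meninges 5 had an unadjusted p under 0.05, against 5.41% of all genes by their brightest probe. All 5 were higher in Ts1Cje, 0 passed after adjustment and the median difference was 0.58. Their mean lay between 6.55 and 8.42 (median 7.71) in Ts1Cje pups and between 6.41 and 7.77 (median 6.65) in euploid pups, with Ogn and Col1a2 under the dim reference. Granule cell precursor markers had 0 at an unadjusted p under 0.05, a median difference of 0.048 and means of 8.87 to 9.08 in Ts1Cje pups and 8.82 to 9.03 in euploid pups. At an unadjusted p under 0.05, erythroid markers had 2 of 3 higher in Ts1Cje, astroglial markers 1 of 4 and oligodendrocyte lineage markers 1 of 3. Their median differences were 0.18, 0.088 and 0.089. Microglial, Purkinje cell and GABAergic interneuron markers had 0, with medians of 0.096, 0.00054 and -0.027. None of these passed after adjustment. The part of the meningeal signal, or of these other cells, in the Sp4 result was not tested.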

How the data were processed

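The layers were individually dissected and their RNA was labelled as cRNA and hybridized to Illumina Mouse-6 BeadChips. The deposited values are log2 bead signals, which the authors averaged over the beads of a probe and scaled to the arrays' mean signal (every array has a mean of 6.69). Groups and litters came from the labels and the paper, with 1 pup per array. Here all 46632 probes were tested on the log2 scale by a two-sided moderated test without litter (limma 3.58.1, functions lmFit and eBayes, under R 4.3.3), with Benjamini-Hochberg adjustment over all probes and a threshold of 0.05. No filter on dim probes was used, so that all member probes were tested (8 of 16 lay above the dim reference). Ratios are 2 to the power of the log2 difference. Symbols came from the platform annotation, updated by Entrez identifier to RefSeq (29976 probes with 1 symbol, 10 with several, 16646 with none). A gene in a list was read by its brightest probe. All member probes were named, and in each list the genes of smallest p, with Cdca7l and Dnah11 always. The fits were tested on simulated data. The members and lists were chosen with earlier results of these data known. Detection p-values were not used. The number of arrays limits the precision.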

Additional observations from a re-analysis of the deposited data

Results flagged for a closer look

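In 32 groups of 9 pups, 1 for each genotype and member probe, 2 held a pup whose gap to its nearest neighbour exceeded the 95% limit of Dixon's test, and chance gives about 1 in 20. For Rapgef5 probe 4, under the dim reference, 1 euploid pup of litter 2 was lowest at 5.43, with the other euploid pups between 5.60 and 5.73. For Sp1 probe 2, also under the reference, 1 euploid pup of litter 3 was highest at 6.49, with the others between 5.77 and 6.12. Neither probe passed a test with all pups.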

How the results depend on the processing

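The brighter Sp4 probe passed with 13 of 14 alternative settings, between -0.91 and -0.65 on the log2 scale. It did not pass without litter 1 (-0.68, limma adjusted p = 0.0670). With as many pups, it passed without litter 2 (limma adjusted p = 0.0139) and without litter 3 (0.0100). The cause was not tested. The other 15 member probes had 0 of 179 alternative values past the threshold, and 20 of these had the other sign. Leaving out a litter or pups, these were Sp1 probe 2 (-0.033 without litter 1 and -0.0080 without litter 2), Itgb8 probe 2 (0.037), Abcb5 (0.019) and Rapgef5 probe 4 (0.0077) without litter 2, Rapgef5 probe 4 (0.0018), Sp3 probe 1 (0.0088) and Sp3 probe 3 (0.010) without litter 3, Itgb8 probe 2 (0.010) and Sp1 probe 1 (-0.0020) without the euploid arrays labelled cerebellum, and Itgb8 probe 2 (0.011), Rapgef5 probe 4 (0.0017) and Sp1 probe 1 (-0.048) without the 2 euploid arrays of smallest spread. With quantile normalization they were Itgb8 probe 2 (0.013), Rapgef5 probe 4 (0.022) and Sp1 probe 1 (-0.0063), with median scaling Rapgef5 probe 4 (9.2e-05), and with background subtraction Sp8 (0.019), Itgb8 probe 2 (0.14) and Rapgef5 probe 4 (0.26). None of these passed the test, and the cause was not tested. Without a change of sign, background subtraction moved Itgb8 probe 1 from -0.19 to -0.84 (standard error 0.49). It moved Itgb8 probe 3 from -0.092 to -0.83 (standard error 0.53). Both probes lay under the dim reference, and neither passed. The interval of the ratio of the brighter Sp4 probe included 0.5 with background subtraction (0.532). The dimmer Sp4 probe, with a difference of -0.37 in that setting, still stood well above a ratio of 0.5.

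Over all probes 43 were called. There were 19 with background subtraction, 82 with litter as a block, 9, 11 and 20 without litter 1, 2 and 3, 27 with the methods' t-test, 23 without the 2 euploid arrays of smallest spread and 68 with the brightest probes only and litter as a block, and the last 2 settings were chosen after seeing the data, as were both settings for the gaps between Sp4 and other genes. No paired analysis was possible because the labels number no replicates, and litter as a block took its place, with Sp4 at an adjusted p of 2.3e-04. Dim probes limit what can be said of Sp8, Abcb5 and Itgb8.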
